A study of Homo sapiens with 12 samples.

Results

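The genes described here are 8 drug efflux transporters of the ATP-binding cassette (ABC) family, ABCB1, ABCC1, ABCC2, ABCC3, ABCC4, ABCC5, ABCC10 and ABCG2, together with MVP, which codes for the major vault protein. These 9 genes were chosen by symbol from the 31654 rows of the expression table that name a gene. The study sequenced RNA of 4 human glioblastoma cell lines, giving 3 libraries for each line. U251TR and U87TR are temozolomide-resistant lines that had been raised in culture from U251MG and U87MG by repeated exposure to rising temozolomide, and U251MG and U87MG are the long-established parental lines. All 4 were grown in DMEM with fetal bovine serum, and the labels do not say whether drug was present at harvest, whether a resistant line is 1 clone, or whether each library is a culture of its own. The p-values therefore measure the spread between these libraries, which may be technical. Each parent gave 1 resistant line, so resistance and any other change of that line during its derivation cannot be told apart. The sequencing codes in the labels of U87TR are not in the run of numbers that holds all other libraries, and in U87TR that run and resistance cannot be told apart.

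ABC exporters use ATP to move substrates across membranes. ABCB1 (P-glycoprotein) and ABCG2 (breast cancer resistance protein) carry many unmodified drugs and are best known in the central nervous system from the endothelium of the blood-brain barrier. The ABCC proteins, called multidrug resistance-associated proteins, mostly export organic anions, among them drugs that the cell has joined to glutathione, glucuronide or sulfate. MVP is no transporter. It forms the wall of the vault, a large ribonucleoprotein particle of the cytoplasm, and was first described in drug-resistant tumor cells as the lung resistance protein.

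Values are FPKM, which are fragments scaled by gene length and by library, so levels can be set beside each other between genes. A library held 13135 to 14122 genes at or above 1 FPKM. Within groups, rank correlations between libraries across genes were 0.990 to 0.993 in U251TR and U87TR. U251MG replicate 2 agreed less with its own group (0.977 and 0.978, against 0.993 between replicates 1 and 3), and so did U87MG replicate 3 to a lesser degree (0.983 and 0.987, against 0.993). Of the glioma and astroglial markers, VIM was at 773 to 859 FPKM in U251TR, 1298 to 2474 in U251MG, 3819 to 4266 in U87TR and 4552 to 5373 in U87MG. GFAP was at 381 to 415 FPKM in U251TR and 18.3 to 29.9 FPKM in U251MG, and at most 2.28 FPKM in both U87 lines. NES was at 39.8 to 45.3 FPKM in U251TR against 178 to 230 FPKM in U251MG, and at 24.6 to 26.3 FPKM in U87TR against 6.63 to 8.80 FPKM in U87MG. CD44 was at 455 to 491 FPKM in U251TR against 365 to 430 FPKM in U251MG, and at 455 to 544 FPKM in U87TR against 960 to 1134 FPKM in U87MG. SOX9 lay between 9.76 and 80.5 FPKM, and OLIG2 between 0.21 and 4.21 FPKM, in all libraries. S100B was at 1.30 to 2.31 FPKM in U251TR against 8.72 to 11.2 FPKM in U251MG and did not exceed 0.1 FPKM in the U87 lines, and AQP4 did not exceed 0.36 FPKM in any library. Among cell types best known for these exporters, hepatocyte and intestinal markers were low, with the 4 in the table summing to at most 1.33 FPKM in any library. Brain endothelial markers VWF and CLDN5 stayed under 0.5 FPKM, whereas CDH5 reached 10.85 to 11.95 FPKM in U251TR and 5.87 to 8.25 FPKM in U251MG, and at most 0.13 FPKM in the U87 lines. KDR was at 6.5 to 7.3 FPKM in U251TR, 1.8 to 3.59 FPKM in U251MG, 0.32 to 0.35 FPKM in U87TR and 1.07 to 1.95 FPKM in U87MG.

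Promoter sequence was matched by symbol in a RefSeq table (GRCh38.p14) for 7 of the 9 genes, in windows from 250 bases before to 50 bases after an annotated start. A window each is shown for ABCC2 and ABCG2, the genes that rose in U87TR, and for ABCC4, the gene that fell in U251TR, while MVP is described without its letters. Capitals mark the letters of 6 short motifs searched on both strands: the antioxidant response core TGACNNNGC, AP-1 as TGANTCA, the dioxin response core GCGTG, the TATA box as TATAAA, the CCAAT box as CCAAT and the GC box as GGGCGG. The ABCC2 window is chr10:99782390-99782689 on the plus strand, the ABCC4 window chr13:95301402-95301701 on the minus strand, and the ABCG2 window, the third from upstream of 5 annotated for that gene and picked as an example, chr4:88158860-88159159 on the minus strand.
ABCC2: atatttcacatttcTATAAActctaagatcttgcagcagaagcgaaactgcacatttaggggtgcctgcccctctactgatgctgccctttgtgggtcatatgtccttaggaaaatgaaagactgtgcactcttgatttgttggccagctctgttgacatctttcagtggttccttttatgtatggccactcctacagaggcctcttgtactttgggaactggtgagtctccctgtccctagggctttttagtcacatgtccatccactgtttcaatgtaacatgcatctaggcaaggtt
ABCC4: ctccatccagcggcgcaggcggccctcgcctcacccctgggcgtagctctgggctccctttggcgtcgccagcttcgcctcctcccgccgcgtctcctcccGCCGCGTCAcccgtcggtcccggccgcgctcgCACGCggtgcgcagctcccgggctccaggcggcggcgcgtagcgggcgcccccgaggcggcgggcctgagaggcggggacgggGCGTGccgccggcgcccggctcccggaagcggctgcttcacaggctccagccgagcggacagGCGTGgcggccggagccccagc
ABCG2: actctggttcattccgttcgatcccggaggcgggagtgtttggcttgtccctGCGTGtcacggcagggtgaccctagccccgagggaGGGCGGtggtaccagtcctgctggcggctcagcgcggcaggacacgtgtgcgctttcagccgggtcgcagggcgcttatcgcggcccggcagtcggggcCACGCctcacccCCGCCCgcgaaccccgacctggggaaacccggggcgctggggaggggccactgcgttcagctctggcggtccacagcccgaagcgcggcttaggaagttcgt

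The ABCC2 window was poor in CpG, with 1 CpG at 45.0% G and C. Of the 35114 windows in the table, 4.0% had fewer CpG, and the median was 14 CpG. The ABCC4 window held 47 CpG at 79.7% G and C (97.6% of windows had fewer CpG), and the ABCG2 window 33 CpG at 70.0%. Only TATAAA matched in the ABCC2 window, at position -236 from the annotated start, a motif that 11.5% of all windows hold. The ABCC4 window had 1 antioxidant response core, which 13.3% of windows hold, and 3 dioxin response cores, which 36.5% hold. The ABCG2 window had 2 dioxin response cores and 2 GC boxes, a motif present in 45.0% of windows. Of the other ABCG2 windows, the first from upstream differs, with 3 CpG at 40.3% G and C and no motif. The second also differs, with 11 CpG at 48.3%, 1 antioxidant response core and neither a dioxin response core nor a GC box. The fourth, which overlaps the window shown, is like it, with 33 CpG at 72.3%, 2 dioxin response cores and 2 GC boxes. The fifth has 35 CpG at 72.0% with 2 dioxin response cores and no GC box. The 3 MVP windows hold 4 to 5 CpG, with 1 CCAAT box in 1 of them, a motif in 34.6% of all windows. These matches are letters in a window and carry no measurement of binding, and the table does not say which start each line uses.

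**Figure D1:**
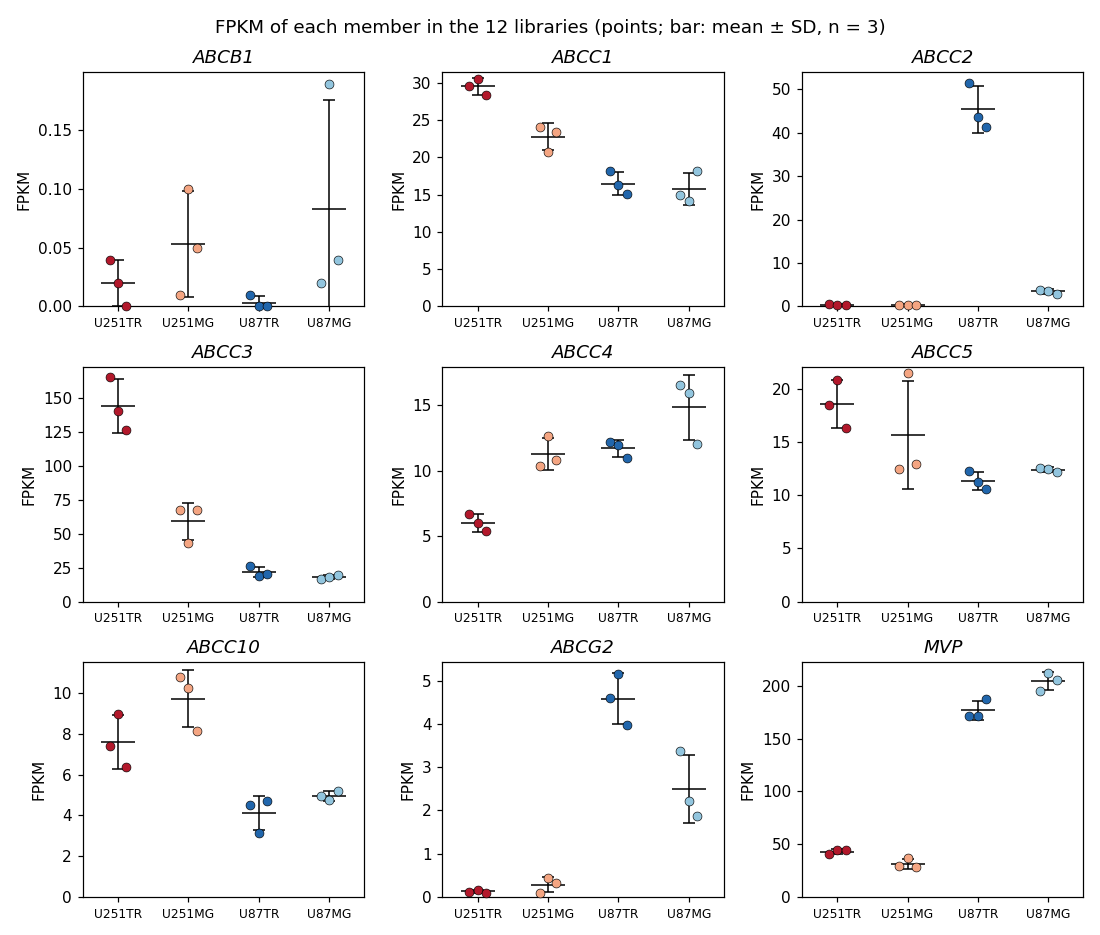
FPKM (vertical axes, linear from 0, a separate scale in each panel) of the 9 genes in U251TR, U251MG, U87TR and U87MG. Points are libraries, and bars are means ± SD (n = 3, cut at 0). ABCC2 stands at 41.2 to 51.4 FPKM in U87TR and at or under 3.83 FPKM everywhere else, while ABCC3 is highest in U251TR and MVP is high in both U87 lines.

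The lines differed in which of the 8 chosen transporter genes gave most of their summed transcripts. The plot of FPKM by library shows that the ABCC genes made up nearly all of this sum, while the most studied drug pump, ABCB1, was almost silent. Most of the 8 genes are ABCC genes, and ABC genes outside the 8 are not in the sum. Summed over the 8 transporters, U251TR had 207 ± 22.6 FPKM against 119 ± 8.60 FPKM in U251MG, and U87TR had 115 ± 11.98 FPKM against 72.1 ± 0.640 FPKM in U87MG (SD, n = 3 each). The libraries of each resistant line lay above those of its parent in this sum. In U251TR the lowest library was at 183 FPKM and the highest U251MG library at 125 FPKM. In U87TR the lowest was at 107 FPKM and the highest U87MG library at 72.8 FPKM. Most of the higher sum came from 1 gene in each resistant line. ABCC3 averaged 144 FPKM in U251TR against 59.35 FPKM in U251MG, and ABCC2 averaged 45.4 FPKM in U87TR against 3.46 FPKM in U87MG. No test was run on this sum. In bulk RNA, fewer cells carrying a transcript and less of it per cell cannot be told apart, here or in the results that follow.

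The make-up of the sum differed as well, again with no test. ABCC3 held 69.7% ± 2.44 of it in U251TR and 49.3% ± 8.32 in U251MG (SD, n = 3 each). ABCC2 held 39.3% ± 0.675 in U87TR and 4.80% ± 0.672 in U87MG (SD, n = 3 each), so that the leading transporter of U87TR was a minor one in its parent. ABCC1 held 14.4% ± 1.28 in U251TR, 19.0% ± 0.170 in U251MG, 14.3% ± 0.399 in U87TR and 21.9% ± 2.95 in U87MG (SD, n = 3 each). ABCC4 took 2.91% ± 0.0370 in U251TR against 9.51% ± 1.78 in U251MG, and 10.2% ± 0.711 in U87TR against 20.6% ± 3.39 in U87MG (SD, n = 3 each). A share falls when another gene rises, so these percentages describe the mixture and not each gene's change.

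**Figure D2:**
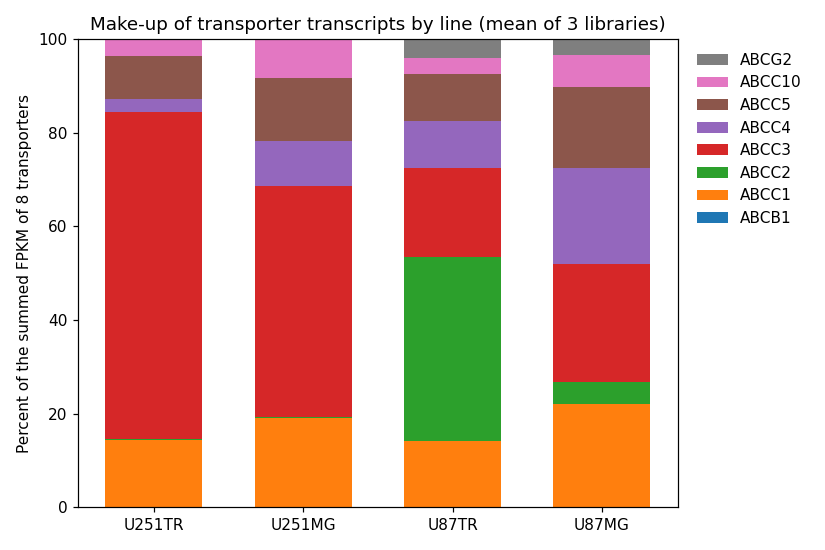
Share of each of 8 transporter genes (stacked colours, percent, vertical axis) in their summed FPKM in U251TR, U251MG, U87TR and U87MG, as means of 3 libraries. ABCC3 fills most of the U251TR bar (69.7%), and ABCC2 takes 39.3% of the U87TR bar against 4.80% of the U87MG bar.

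The first comparison asked which of these genes differed between U251TR and U251MG. ABCC3, ABCC1 and MVP rose and ABCC4 fell in U251TR. Testing used limma on log2(FPKM + 1) for genes that reached 1 FPKM in 3 or more libraries, and 8 of the 9 genes passed this filter. ABCB1 did not. Of the 8, 3 rose and 1 fell at an adjusted p (Benjamini-Hochberg over 15449 genes) under 0.05. Over all genes tested, 53.2% were called in this comparison, 33.6% as higher and 19.6% as lower, so the count of 4 in 8 is close to the background. For 4 of the 8 genes the libraries of the groups did not overlap, and for all tested genes that share was 58.9%. The median log2 fold change of the 8 genes was 0.18, and that of all tested genes was 0.10.

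ABCC3 codes for an exporter of glucuronide conjugates and bile salts that sits on the basolateral membrane of liver and gut cells. It had 166, 141 and 126 FPKM in U251TR, against 67.3, 43.5 and 67.3 FPKM in U251MG. All 3 U251TR libraries were above all 3 U251MG libraries, and U251MG replicate 2 was the lowest. The log2 fold change was 1.29 (SE 0.17, limma adjusted p = 5.51e-05), a 2.44-fold rise, and only ABCC3 of the 8 changed by at least 2-fold in this comparison, where 13.6% of tested genes did so and passed. Within each library, ABCC3 ranked at percentiles 94.5 to 96.5 of the tested genes in U251TR and 82.2 to 88.8 in U251MG. Of the brain endothelial markers, CDH5 and KDR were also higher in the U251TR libraries. VWF was lower (0.17 to 0.19 FPKM against 0.24 to 0.47 FPKM in U251MG), and CLDN5 overlapped (0.06 to 0.15 FPKM against 0.05 to 0.07 FPKM). The 4 of 5 brain endothelial markers found in the table summed to 17.9 to 18.7 FPKM in U251TR and 9.57 to 10.6 FPKM in U251MG, almost all of it CDH5 and KDR, and their part in the change of ABCC3 was not tested.

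ABCC1, the multidrug resistance protein that exports glutathione conjugates and leukotriene C4, had 29.6, 30.5 and 28.4 FPKM in U251TR, against 24.1, 20.7 and 23.4 FPKM in U251MG. The groups did not overlap, and the rise was small (log2 fold change 0.36, SE 0.11, limma adjusted p = 0.012). With median-of-ratios scaling between libraries it did not pass (log2 fold change 0.23, adjusted p = 0.0998). MVP had 40.5, 44.4 and 43.97 FPKM in U251TR, against 29.2, 36.7 and 28.3 FPKM in U251MG. U251MG replicate 2 came nearest to the U251TR libraries but stayed below them, and the log2 fold change was 0.45 (SE 0.09, limma adjusted p = 0.00173). By annotation, 185 bases of MVP exons overlap PAGR1 on the same strand, a gene with no value used here.

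ABCC4, which exports cyclic nucleotides, urate and prostaglandins as well as nucleotide analog drugs, moved the other way. It had 6.72, 5.97 and 5.37 FPKM in U251TR, against 10.3, 12.7 and 10.8 FPKM in U251MG, with no overlap. The log2 fold change was -0.80 (SE 0.13, limma adjusted p = 0.000221). As a ratio within each library, which scaling by 1 factor per library cannot alter, ABCC3 was 23.55 to 24.65 times ABCC4 in U251TR and 3.44 to 6.51 times ABCC4 in U251MG.

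The other 4 tested genes did not pass in U251TR. ABCC5, an exporter of cyclic nucleotides and nucleotide analogs, had 18.5, 20.8 and 16.3 FPKM in U251TR, against 12.5, 21.5 and 13.0 FPKM in U251MG. U251MG replicate 2 lay above every U251TR library, and the log2 fold change of 0.27 (SE 0.17, limma adjusted p = 0.203) was 0.50 without it (adjusted p = 0.00122). ABCC10, an exporter that carries taxanes in cell models, had 7.40, 9.01 and 6.38 FPKM in U251TR, against 10.8, 10.3 and 8.17 FPKM in U251MG, with overlap and a log2 fold change of -0.32 (SE 0.15, limma adjusted p = 0.0915). It passed as lower without U251TR replicate 2 (adjusted p = 0.0428) or U251MG replicate 3 (adjusted p = 0.0451), and with median-of-ratios (adjusted p = 0.0258) or quantile scaling (adjusted p = 0.0108). By annotation, 76 bases of ABCC10 exons overlap DLK2 on the opposite strand, which averaged 4.403 FPKM in U251TR and 4.85 FPKM in U251MG, and no label states whether counting used strand. ABCC2 stayed between 0.42 and 0.46 FPKM in U251TR and between 0.23 and 0.45 FPKM in U251MG. ABCG2 ranged over 0.09 to 0.16 FPKM in U251TR and 0.09 to 0.43 FPKM in U251MG. At such levels the added 1 FPKM of the log scale holds any fold change near 0.

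U87TR was then set against U87MG in the same way. ABCC2 and ABCG2 rose in U87TR, and none of the 8 tested genes passed as lower. Over all genes tested 27.8% were called in this comparison, 10.6% as higher and 17.2% as lower, and the count of 2 in 8 is again close to the background. The median log2 fold change of the 8 was -0.03, against -0.05 over all tested genes.

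ABCC2 codes for the canalicular exporter that moves conjugated bilirubin, glutathione conjugates and some platinum drugs into bile, and it is normally a gene of liver, gut and kidney epithelium. It had 51.4, 43.5 and 41.2 FPKM in U87TR, against 3.83, 3.65 and 2.90 FPKM in U87MG. The lowest U87TR library was 10.8 times the highest U87MG library. Means were 45.4 ± 5.37 FPKM in U87TR and 3.46 ± 0.493 FPKM in U87MG (SD, n = 3 each), a 13.1-fold difference, and 10.4-fold on the log2(FPKM + 1) scale (log2 fold change 3.38, SE 0.12, limma adjusted p = 2.88e-09). This was the 15th largest rise among the 15449 tested genes. It ranked at percentiles 82.8 to 86.3 of the tested genes in U87TR, against percentiles 28.6 to 33.1 in U87MG. In this comparison 5.19% of tested genes passed with at least a 2-fold change.

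Set against other exporters of the same library, ABCC2 was 1.98 to 2.29 times ABCC3 in U87TR and 0.148 to 0.232 times ABCC3 in U87MG. Hepatocyte and intestinal markers stayed near 0, with sums of 1.00 to 1.33 FPKM in U87TR and 0.68 to 0.82 FPKM in U87MG. EPCAM, the highest of them, was at 0.85 to 1.19 FPKM in U87TR and 0.55 to 0.65 FPKM in U87MG. The 4 blood and microglial markers in the table summed to 314 to 344 FPKM in U87TR and 190 to 205 FPKM in U87MG. CD68, a lysosomal glycoprotein, made up nearly all of that sum, while PTPRC, which defines blood cells, was at 0.02 to 0.05 FPKM in U87TR and at most 0.01 FPKM in U87MG. The 4 neuron markers summed to 21.9 to 23.8 FPKM in U87TR and 17.05 to 21.7 FPKM in U87MG, mostly SNAP25, and RBFOX3 was at 1.21 to 4.82 FPKM in U87TR and 0.08 to 0.21 FPKM in U87MG. The part of these markers in the change of ABCC2 was not tested.

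ABCG2, a small transporter that works as a homodimer and carries many kinase inhibitors and topoisomerase poisons, had 4.60, 5.16 and 3.98 FPKM in U87TR, against 3.37, 2.21 and 1.87 FPKM in U87MG. The groups did not overlap, and the log2 fold change was 0.70 (SE 0.16, limma adjusted p = 0.00663). The call depended on the added constant: with 0.1 FPKM in place of 1 the log2 fold change was 0.89 with adjusted p = 0.0827.

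MVP was the most abundant of the 9 genes in both U87 lines and did not pass. It had 172, 172 and 187 FPKM in U87TR, against 195, 213 and 205 FPKM in U87MG, all 3 U87TR libraries below the U87MG libraries, with a log2 fold change of -0.21 (SE 0.09, limma adjusted p = 0.127). In this comparison the libraries of 46.6% of all tested genes did not overlap. ABCC10 had 4.49, 3.14 and 4.71 FPKM in U87TR, against 4.95, 4.74 and 5.22 FPKM in U87MG, also without overlap, and a log2 fold change of -0.24 (SE 0.15, limma adjusted p = 0.28). ABCC4 had 12.2, 11.95 and 10.95 FPKM in U87TR, against 16.6, 15.9 and 11.99 FPKM in U87MG, where replicate 3 fell among the U87TR values. Its log2 fold change was -0.31 (SE 0.13, limma adjusted p = 0.0963), and without U87MG replicate 3 it was -0.44 and passed (adjusted p = 0.0141).

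For the remaining 3 genes the groups overlapped. ABCC1 had 18.1, 16.2 and 15.01 FPKM in U87TR, against 14.99, 14.2 and 18.2 FPKM in U87MG, with a log2 fold change of 0.06 and a 95% interval from -0.17 to 0.29. ABCC3 had 26.03, 18.97 and 20.5 FPKM in U87TR, against 16.5, 18.1 and 19.6 FPKM in U87MG, with a log2 fold change of 0.25 and an interval from -0.12 to 0.63. ABCC5 had 12.3, 11.3 and 10.6 FPKM in U87TR, against 12.6, 12.5 and 12.2 FPKM in U87MG, with a log2 fold change of -0.12 and an interval from -0.48 to 0.25. Each interval holds 0 and also changes as large as its bounds.

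**Figure D3:**
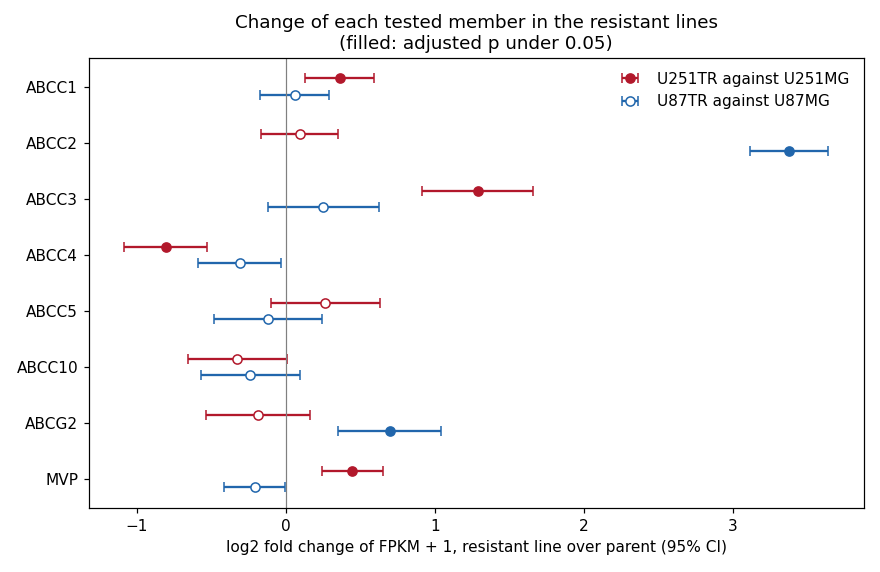
log2 fold change of FPKM + 1 (horizontal axis) with its 95% confidence interval for the 8 tested genes, in U251TR against U251MG (red) and U87TR against U87MG (blue). Filled points passed at adjusted p under 0.05: ABCC1, ABCC3, ABCC4 and MVP in U251TR, and ABCC2 and ABCG2 in U87TR. No gene is filled in both.

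ABCB1, the gene of P-glycoprotein, was at 0.04, 0.02 and 0 FPKM in U251TR, against 0.01, 0.10 and 0.05 FPKM in U251MG. In U87TR it was listed at 0.01, 0 and 0 FPKM, against 0.02, 0.19 and 0.04 FPKM in U87MG. The table gives 2 decimals, and its smallest entry above 0 is 0.01 FPKM, so these values lie close to its lower limit. The groups overlapped in the U251 lines, whereas all 3 U87TR libraries lay below the U87MG libraries. A rise of ABCB1 with resistance was not seen in either line. When all genes were tested without a filter, it did not pass in either comparison (log2 fold change -0.05, limma adjusted p = 0.603 in U251TR, and -0.11, adjusted p = 0.25 in U87TR). Values this low hold little power to find a difference. ABCB4, its closest relative and a phospholipid exporter of bile, was also under 1 FPKM in every library.

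The difference between the resistance changes of the 2 lines was tested directly, as the change in U87TR minus the change in U251TR. It passed for 5 of the 8 genes, 3 above 0 and 2 below, where 47.6% of all tested genes passed, 15.4% above 0 and 32.1% below. With a difference of at least 2-fold, 2 of the 8 and 18.4% of all tested genes passed. For ABCC2 the difference was 3.29 (SE 0.17, limma adjusted p = 4.33e-08) and for ABCG2 0.88 (SE 0.23, adjusted p = 0.00693), where the changes in U251TR were 0.09 and -0.18. Both genes were under 0.5 FPKM in every U251TR and U251MG library and entered the test through the U87 lines. The added 1 FPKM holds their U251TR change near 0, so these differences mainly restate the U87TR change. For ABCG2 the difference was 0.40 with an added 5 FPKM and 1.56 with an added 0.1 FPKM. For ABCC3 it was -1.03 (SE 0.24, limma adjusted p = 0.00415) and for MVP -0.66 (SE 0.13, adjusted p = 0.00177), where the changes in U87TR were 0.25 and -0.21. ABCC4 passed narrowly (0.50, SE 0.18, limma adjusted p = 0.0394) and did not pass in 10 other settings (adjusted p from 0.0543 to 0.0892), among them without U251TR replicate 2 or 3, U251MG replicate 2 or 3, U87TR replicate 1 or 2, or U87MG replicate 3. ABCC1, ABCC5 and ABCC10 did not pass, with intervals from -0.63 to 0.02, -0.90 to 0.13 and -0.38 to 0.56 on the log2 scale. The difference for ABCC5 passed without U251MG replicate 2 (-0.62, limma adjusted p = 0.00247).

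The parental lines differed in most of these genes, as they did in most of all tested genes. In U87MG against U251MG, 7 of the 8 tested genes passed, 4 as higher and 3 as lower, where 72.3% of all tested genes did, 32.2% as higher and 40.1% as lower. With at least a 2-fold change, 4 of the 8 and 31.6% of all tested genes passed. MVP was 6.38-fold higher in U87MG on the log2(FPKM + 1) scale (SE 0.09 on the log2 fold change of 2.67, limma adjusted p = 1.25e-10). ABCC2 was at 2.90 to 3.83 FPKM in U87MG and 0.23 to 0.45 FPKM in U251MG, and ABCG2 at 1.87 to 3.37 FPKM in U87MG and 0.09 to 0.43 FPKM in U251MG. Both entered the test through the U87 libraries alone, so their calls between the lines follow in part from the filter. ABCC3 was lower in U87MG (log2 fold change -1.64, SE 0.17, limma adjusted p = 2.81e-06), and so were ABCC10 (-0.84, SE 0.15, adjusted p = 0.000309) and ABCC1 (-0.51, SE 0.11, adjusted p = 0.000915). ABCC4 was higher in U87MG (0.36, SE 0.13, limma adjusted p = 0.0232), a call lost without replicate 1 or 3 of U251MG or replicate 1 or 2 of U87MG (adjusted p from 0.0652 to 0.0955). The call was also lost when this comparison was fitted alone (limma adjusted p = 0.0641).

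Between the resistant lines, U87TR against U251TR, all 8 tested genes passed, 4 in each direction, where 72.6% of all tested genes did, 25.5% as higher and 47.1% as lower. With at least a 2-fold change, 4 of the 8 and 32.6% of all tested genes passed. In U251TR, ABCC2 was at 0.42 to 0.46 FPKM and ABCG2 at 0.09 to 0.16 FPKM. Both entered the test through the U87 libraries alone, so these 2 genes' calls, and their part in the counts, follow in part from the filter. Libraries did not overlap for any of the 8, with ABCC2, ABCC4, ABCG2 and MVP higher and ABCC1, ABCC3, ABCC5 and ABCC10 lower in U87TR. Over all tested genes the libraries of 78.7% did not overlap in this comparison. ABCC2 averaged 45.4 FPKM in U87TR and 0.437 FPKM in U251TR, and ABCC3 averaged 21.8 ± 3.71 FPKM in U87TR and 144 ± 19.8 FPKM in U251TR (SD, n = 3 each). These line comparisons share their libraries with the resistance comparisons and are not independent of them.

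Ordered by mean level over the 4 lines, ABCC1 and ABCC3 ran U251TR, U251MG, U87TR, U87MG, with overlap only between U87TR and U87MG. ABCC2 ran U87TR, U87MG, U251TR, U251MG, and ABCG2 ran U87TR, U87MG, U251MG, U251TR, each with overlap only between the U251 lines. MVP ran U87MG, U87TR, U251TR, U251MG, with no overlap between neighbours in that order. ABCC10 ran U251MG, U251TR, U87MG, U87TR, with overlap only between the U251 lines. ABCC4 ran U87MG, U87TR, U251MG, U251TR, and only U251TR stood clear of its neighbour. ABCC5 ran U251TR, U251MG, U87MG, U87TR, and every neighbouring pair overlapped.

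The 5 nearest tested genes on each side of each called gene in RefSeq gene order were set beside it, and those of ABCC2 and ABCC3 are drawn. Over all tested genes, 33.6% rose and 19.6% fell in U251TR, and 10.6% rose and 17.2% fell in U87TR. This was chosen after the values of ABCC2 were seen. Around ABCC2, neighbours in U87TR had log2 fold changes from -0.89 (ENTPD7, a nucleotidase) to 0.50 (CUTC), with a median of -0.01, and 1 of 10 rose and 2 fell. CUTC, the nearest neighbour before ABCC2, and DNMBP, the nearest after it (-0.04, SE 0.09), thus lay far from the 3.38 of ABCC2 itself. Around ABCC3 in U251TR, the 10 neighbours ranged from -0.29 (ANKRD40) to 0.90 (EME1, a subunit of a DNA repair endonuclease), with a median of 0.02, where 3 rose and 1 fell. ABCC3 was at 1.29. Around ABCC4 in U251TR, the 10 neighbours ranged from -2.91 (SOX21) to 0.72 (DZIP1), with a median of -0.20, and 3 rose and 5 fell. SOX21-AS1, the nearest before ABCC4, was at -2.27, and ABCC4 itself at -0.80. In U251TR, 1 of 10 neighbours of ABCC1 rose and none fell, and 2 of MVP rose and 1 fell. Around ABCG2 in U87TR, 2 of 10 rose and 2 fell. DNA copy number was not measured.

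**Figure D4:**
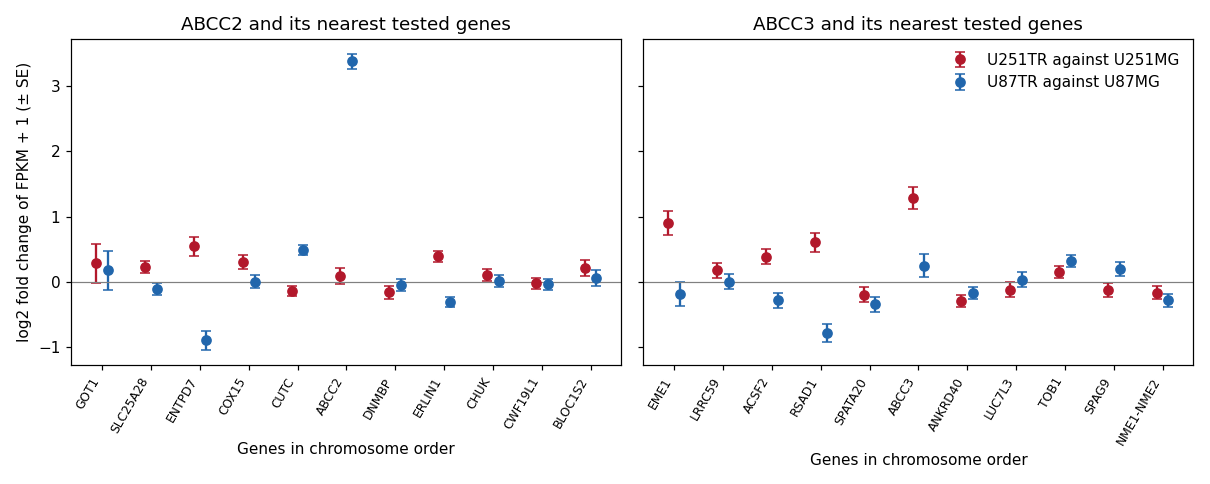
log2 fold change of FPKM + 1 (vertical axis, ± SE) of ABCC2 (left panel) and ABCC3 (right panel) and the 5 nearest tested genes on each side, in chromosome order, for U251TR against U251MG (red) and U87TR against U87MG (blue). ABCC2 stands at 3.38 in U87TR while its neighbours lie between -0.89 and 0.50.

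By correlation of log2(FPKM + 1) over the 12 libraries, the 2 genes most like each called member were found among genes with a plain symbol. ACSM5, a gene of the acyl-CoA synthetase family, was most like ABCC2 (Pearson r = 0.99), with means of 21.1 FPKM in U87TR, 2.53 FPKM in U87MG, 0.177 FPKM in U251TR and 0 in U251MG. The annexin gene ANXA8 followed (r = 0.99), with 45.8 FPKM in U87TR and 2.22 FPKM in U87MG. AFTPH and the tight junction gene CLDN1 were most like ABCC3 (r = 0.99 for both), and CLDN1 had 28.7 FPKM in U251TR against 7.31 FPKM in U251MG. TBC1D2 and CGB8 were most like ABCG2 (r = 0.99 for both), RRP1B and RBPMS most like ABCC4 (r = 0.99 and 0.97), ZSWIM4 and CRYL1 most like ABCC1 (r = 0.98 for both), and SLC43A3 and CYB5R3 most like MVP (r = 1.00 for both, rounded). ANXA8 and CGB8 belong to near-identical gene copies, so their values are uncertain. The 12 libraries form 4 lines, so these correlations mainly rest on the differences between lines.

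Counts over the lists of related genes that follow are to be read against all tested genes, of which 33.6% rose and 19.6% fell in U251TR (median log2 fold change 0.10), and 10.6% rose and 17.2% fell in U87TR (median -0.05). No test of a list was run. Of 39 listed ABC genes outside the 9, 20 were tested, of which 9 rose and 4 fell in U251TR (median log2 fold change 0.26), and 4 rose and 3 fell in U87TR (median 0.03). The 13 of 20 called in U251TR and 7 of 20 called in U87TR are near the 53.2% and 27.8% called over all tested genes. In the ABCB group, which serves mitochondria, lysosomes and peptide transport, 5 of 6 tested genes rose and 1 fell in U251TR. TAP1, a peptide transporter of antigen presentation, had 98.5 ± 4.10 FPKM in U251TR against 30.9 ± 3.57 FPKM in U251MG, and ABCB8, of the mitochondrial inner membrane, 48.7 ± 0.996 against 25.1 ± 4.05 FPKM (SD, n = 3 each). In U87TR, ABCB6, a porphyrin transporter, rose with a log2 fold change of 0.42 (limma adjusted p = 0.0253), a call lost without U87TR replicate 1 or 3 or U87MG replicate 1 or 2 (adjusted p from 0.0795 to 0.105). The ABCB6 call was also lost with no filter (limma adjusted p = 0.0552) or with the comparison fitted alone (adjusted p = 0.0722). Of 9 tested lipid-handling genes, 4 rose and 1 fell in U251TR, and 3 rose and none fell in U87TR. ABCA1, the cholesterol exporter, rose 1.75-fold in U251TR, and ABCA3, a phospholipid transporter, 1.46-fold in U251TR and 1.49-fold in U87TR. Among 4 ABC proteins without membrane domains, ABCE1, a ribosome recycling factor, was lower in U251TR with a log2 fold change of -0.78 (limma adjusted p = 0.000347) and ABCF2 with -0.38 (adjusted p = 0.0251, a call not kept in 6 other settings, at adjusted p from 0.0543 to 0.101, among them without U251TR replicate 1 or 2 or U251MG replicate 1 or 3). ABCE1 had a log2 fold change of -0.38 in U87TR (limma adjusted p = 0.0499), which did not pass in 13 other settings (adjusted p between 0.0506 and 0.188). The other ABCC genes, ABCC6, ABCC8, ABCC9, ABCC11 and ABCC12, were under 2 FPKM in every library, except for ABCC9 at 3.02 to 3.5 FPKM in U87TR and 3.69 to 4.11 FPKM in U87MG, a change that did not pass (limma adjusted p = 0.113). ABCC6 has near-identical pseudogene copies that could share its reads.

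Partners of the vault, of the membrane anchor and of conjugation were set beside the members. The vault poly(ADP-ribose) polymerase gene PARP4 also rose in U251TR (log2 fold change 0.47, SE 0.09, limma adjusted p = 0.00114), while TEP1, the other protein partner, had 0.22 (adjusted p = 0.349). Neither passed in U87TR. Of 7 tested anchoring partners, 4 rose and none fell in U87TR (27.8% of all tested genes called there), and 1 rose and 5 fell in U251TR (53.2% called). SLC9A3R2, a PDZ scaffold of membrane transporters, stood at 48.9 ± 3.41 FPKM in U87TR against 2.39 ± 0.204 FPKM in U87MG (SD, n = 3 each; log2 fold change 3.88, limma adjusted p = 2.73e-10). SLC9A3R1, a related scaffold, rose in both resistant lines, 3.24-fold in U251TR and 3.52-fold in U87TR. PIM1, a kinase reported to act on ABCG2, had 17.4 ± 2.25 FPKM in U251TR against 81.3 ± 30.8 FPKM in U251MG (SD, n = 3 each).

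Of 19 tested genes of glutathione and glucuronide conjugation, 12 rose and 3 fell in U251TR (median log2 fold change 0.56, against 0.10 over all tested genes), and 6 rose and 1 fell in U87TR (median 0.11, against -0.05). Over all tested genes 33.6% rose in U251TR and 10.6% in U87TR. MGST1, a microsomal glutathione transferase, had 304 ± 8.16 FPKM in U251TR against 79.9 ± 14.5 FPKM in U251MG (SD, n = 3 each). UGT8, which makes galactosylceramide, rose 3.97-fold in U251TR. GSTA4, the transferase for hydroxynonenal, rose 2.02-fold in U87TR and MGST3 1.45-fold. Of 22 tested genes of the NRF2 pathway, which regulates several ABCC genes, 14 rose and 3 fell in U251TR (median log2 fold change 1.006), and 5 rose and 3 fell in U87TR (median -0.02). AKR1B10 rose 30.6-fold and AKR1C1 24.1-fold in U251TR, and AKR1C1 5.32-fold and AKR1C3 3.99-fold in U87TR. These aldo-keto reductases have close paralogs that could share reads. Of 10 tested genes listed as organic anion and cation uptake carriers, 3 rose and 2 fell in each resistant line. Over all tested genes, 53.2% were called in U251TR and 27.8% in U87TR. SLC47A1, counted in this list, is an organic cation and proton exchanger that exports drugs. It had 13.7 ± 0.570 FPKM in U251TR against 1.09 ± 0.266 FPKM in U251MG (SD, n = 3 each). SLCO3A1 rose in both resistant lines (1.44-fold in U251TR, 1.47-fold in U87TR), and SLC19A1, the folate carrier, was lower in U87TR (log2 fold change -0.55).

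Among 17 tested regulators, 10 rose and 2 fell in U251TR (53.2% of all tested genes called), and 1 rose and 4 fell in U87TR (27.8% called). CEBPB, a factor of the acute phase response, rose 2.71-fold in U251TR. In U87TR CEBPB fell by 1.00 log2 units (SE 0.22, limma adjusted p = 0.00588), and so did EPAS1, a hypoxia-inducible factor, by 1.10 (SE 0.29, adjusted p = 0.015). Levels of 3 further regulators are given here as genes chosen after their values were seen. AHR, the dioxin receptor that binds the dioxin response core, averaged 52.6 FPKM in U87TR and 26.9 FPKM in U87MG (log2 fold change 0.92, SE 0.15, limma adjusted p = 0.000817), and was at 0.0133 FPKM in U251TR and 0 in U251MG. The xenobiotic receptor gene NR1I2 was listed at 0 in 11 of the 12 libraries and HNF4A, a hepatocyte factor, was at most 0.17 FPKM in any library. The plot of list genes by comparison shows how widely the genes of each list spread.

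**Figure D5:**
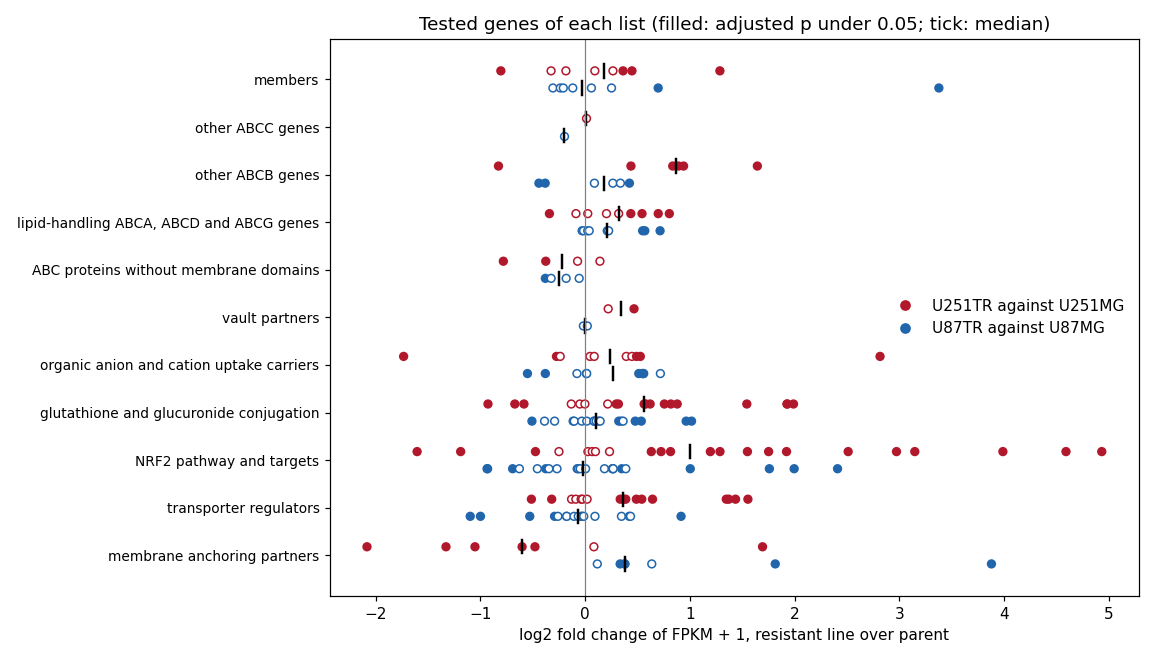
log2 fold change of FPKM + 1 (horizontal axis) of every tested gene in the 9 transporter and vault genes (top row) and in 10 lists of related genes, in U251TR against U251MG (red, upper of each pair) and U87TR against U87MG (blue, lower). Filled points passed at adjusted p under 0.05, and ticks mark medians. The ABCC2 point at 3.38 in U87TR lies beyond every blue point except SLC9A3R2 at 3.88 in the anchoring row.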

How the data were processed

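RNA-seq of 12 libraries was analysed, 3 from each of U251TR, U251MG, U87TR and U87MG. Per the submitters' processing notes, STAR 2.5.2b and RSEM 1.2.31 were used with build hg19, whereas the design text names hg38, so no coordinate was taken from the deposited table. The authors deposited 1 value per gene symbol to 2 decimals, taken here as FPKM. The labels and the header name no unit, and FPKM was inferred from library sums of 695282 to 785754. TPM with genes left out would look alike. Sequencing depth is unknown. Symbols turned into dates (27 of 31681 entries) were left out.

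The 15449 genes that reached 1 FPKM in 3 or more libraries were fitted with limma 3.58.1 in R 4.3.3 on log2(FPKM + 1), as group means over the 12 libraries with a variance trend and robust moderation. Fold changes come from that scale, which understates changes of low genes. Adjusted p-values are Benjamini-Hochberg over all tested genes, two-sided, with a threshold of 0.05. The fit was tested on simulated data. Sums, shares, ratios, neighbours and promoter motifs are descriptions. Exon overlaps come from GENCODE annotation on hg38, and promoters and gene order from RefSeq on GRCh38.p14.

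The 9 genes and the gene lists were chosen with earlier results of these data known, and the rise of ABCC2 in U87TR is no independent finding. All 9 genes are named. From each list, the genes named are the 2 with the largest absolute log2 fold change among those called in each resistance comparison, averaging 5 FPKM or more in the higher group. Genes most like a called member are the 2 with the highest correlation, among plain symbols averaging 5 FPKM or more in their highest group. Others are named as chosen after their values were seen, and some genes that the rule names are not reported here. Alternatives were other added constants, filters, scalings and moderation, a 2-fold threshold, a replicate block, each comparison fitted alone, and leaving out each library.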

Additional observations from a re-analysis of the deposited data

Results flagged for a closer look

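For 5 of the 8 tested transporter and vault genes, the change in U87TR differed from the change in U251TR when the difference itself was tested in limma (values are log2 differences, U87TR change minus U251TR change, with Benjamini-Hochberg adjusted p). The differences were 3.29 for ABCC2 (adjusted p = 4.33e-08), 0.88 for ABCG2 (adjusted p = 0.00693), 0.50 for ABCC4 (adjusted p = 0.0394), -0.66 for MVP (adjusted p = 0.00177) and -1.03 for ABCC3 (adjusted p = 0.00415). Over all tested genes 47.6% passed this test. ABCC2 and ABCG2 were under 0.5 FPKM in every U251TR and U251MG library, where the added 1 FPKM holds a change near 0, so their differences mainly restate the U87TR change.

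Of the 23 list genes named above, 16 also passed the same test. These genes were picked for a large change in 1 of the resistance comparisons, which favours a difference between them, so the count is no evidence about the lists. Among other ABC genes and the vault partner, the differences were -1.56 for TAP1, -1.32 for ABCB8, -0.47 for ABCB6, -0.77 for ABCA1 and -0.48 for PARP4. Among carriers, conjugation enzymes and NRF2 pathway genes, they were -2.80 for SLC47A1, -1.63 for UGT8, -1.79 for MGST1, -0.53 for GSTA4, -3.17 for AKR1B10, -2.18 for AKR1C1 and -1.15 for AKR1C3. Among regulators and anchoring partners, they were -2.44 for CEBPB, -2.47 for EPAS1, 2.72 for PIM1 and 4.48 for SLC9A3R2. Adjusted p over these 16 ran between 1.46e-09 for SLC9A3R2 and 0.0462 for ABCB6. ABCB8, CEBPB and EPAS1 fell in U87TR and rose in U251TR, and SLC9A3R2 rose in U87TR and fell in U251TR.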

How the results depend on the processing

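Comparisons are given here in the order U251TR against U251MG, U87TR against U87MG, U87MG against U251MG, U87TR against U251TR, and the difference between the resistance changes. The main counts were 4, 2, 7, 8 and 5 of the 8 tested transporter and vault genes, and 8222, 4294, 11170, 11220 and 7350 of all tested genes. Requiring at least a 2-fold change left 1, 1, 4, 4 and 2 of the 8, and 2096, 802, 4884, 5031 and 2846 of all genes. With a replicate block the counts were 4, 2, 7, 8 and 5 of the 8, and 8119, 4094, 11137, 11191 and 7202 of all genes. No clear pairing by replicate number was seen. Same-numbered libraries correlated in their deviations at -0.053, 0.116 and 0.016 (U251 lines) and -0.058, 0.059 and -0.052 (U87 lines), and not every library correlated best with its own number. With 3 libraries per group, such small values cannot decide whether libraries shared a culture or a day. Leaving out 1 library gave 4 to 5, 2 to 3, 6 to 7, 8 to 8 and 4 to 5 of the 8, and 7262 to 8961, 3013 to 4488, 10529 to 11505, 10543 to 10790 and 6537 to 8425 of all genes. In U87TR the count was 1 with an added 0.1 FPKM and 1 with a filter of 5 FPKM, which left ABCG2 out. Estimates that had not passed changed sign in 4 cases: ABCC2 in U251TR was -0.13 with quantile normalization, ABCC1 in U87TR was -0.0078 without U87TR replicate 1 and -0.0087 without U87MG replicate 2, and the ABCC10 difference was -0.0165 without U251TR replicate 3. Leaving out 1 library gave -0.0087 to 0.1608 for ABCC1 in U87TR and -0.0165 to 0.2331 for the ABCC10 difference. The cause was not tested. ABCC5 lost its call in U87TR against U251TR with quantile normalization (adjusted p = 0.0686). The share of calls that were higher in U251TR was 63.2%, against 72.1%, 51.3% and 49.3% with TPM, median-of-ratios and quantile scaling. In U87TR it was 38.1%, against 46.2%, 49% and 48.8%. In U87TR against U251TR it was 35.1%, against 33.4%, 48.9% and 48.7%, and for the difference 32.4%, against 27.9%, 47.5% and 48.6%. TPM scaling moved the median log2 fold change of all genes in U251TR to 0.20 (main 0.10), and median-of-ratios scaling that of U87TR against U251TR to -0.01 (main -0.27). Without counts, the depth behind values under 1 FPKM, such as those of ABCB1, is unknown.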
